A study of Mus musculus with 9 samples.

Results

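Pax3, Six4, Eya1, Eya2, Eya4 and Msx1 are transcription factors and cofactors that act upstream of the myogenic determination genes. They were measured here in differentiated C2C12 cells by every probe set that the platform annotation assigns to exactly 1 of these symbols. That gave 9 probe sets for the 6 genes, of 29131 probe sets with 1 symbol and 15964 genes named in all. Six4 had 3 probe sets, Eya1 had 2, and Pax3, Eya2, Eya4 and Msx1 had 1 each. All 9 lay on the U74Av2 array and none on U74Bv2 or U74Cv2. No probe set annotated to several genes named a member.

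C2C12 is an established mouse skeletal muscle line whose myoblasts stop dividing and form multinucleate myotubes in low serum. The cultures had spent 5 days in differentiation medium, DMEM with 2% horse serum and penicillin and streptomycin, at 37 °C. Their total RNA was hybridised to 9 Affymetrix arrays, 3 replicates of each of the U74Av2, U74Bv2 and U74Cv2 designs. There was 1 condition and no undifferentiated culture, so the arrays show which members gave signal and how reproducibly, and not which of them changed. The titles number the replicates 1 to 3 on each design, while the descriptions give all arrays 1 sample identifier and name no separate cultures. The p-values therefore measure only the spread between these arrays, shared across probe sets by the fit, and this spread may be technical.

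Pax3 is a paired-domain factor of the dermomyotome and of the muscle precursors that migrate into the limb, where it acts above Myf5 and Myod1. Six4 belongs to the sine oculis family, homeodomain factors that bind the MEF3 element of muscle promoters. Eya proteins do not bind that element themselves. They are phosphatases that join sine oculis proteins as coactivators, and the pair acts on the myogenin gene Myog. Msx1 is a homeodomain repressor that holds back differentiation of myogenic cells.

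The myogenin promoter is the textbook target of sine oculis proteins, and Six4 was detected by all 3 of its probe sets. Both promoters are shown because each holds the letters of a MEF3 core, written TCAGGTT and searched on both strands. The windows are from RefSeq on GRCm38.p6 and run from 250 bases before the start site to 50 after it, 5′ to 3′ on the strand of the gene. Myog lies at chr1:134289754-134290053 on the plus strand and Six4 at chr12:73113196-73113495 on the minus strand. Capitals mark the MEF3 letters.
Myog: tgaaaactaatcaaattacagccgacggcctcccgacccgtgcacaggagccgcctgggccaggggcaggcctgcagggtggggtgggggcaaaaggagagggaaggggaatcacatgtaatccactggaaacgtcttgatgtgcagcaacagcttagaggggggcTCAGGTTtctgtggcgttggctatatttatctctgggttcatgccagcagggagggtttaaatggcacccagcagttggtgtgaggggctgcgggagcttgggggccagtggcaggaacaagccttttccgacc
Six4: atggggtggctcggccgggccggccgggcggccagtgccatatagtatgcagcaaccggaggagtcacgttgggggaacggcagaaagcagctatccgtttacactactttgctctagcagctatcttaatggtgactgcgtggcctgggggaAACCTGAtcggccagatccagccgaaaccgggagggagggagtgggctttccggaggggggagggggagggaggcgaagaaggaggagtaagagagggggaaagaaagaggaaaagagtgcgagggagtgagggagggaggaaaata

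In the Myog window the match reads TCAGGTT from position -84, counted from the start site. In the Six4 window it reads AACCTGA from position -97, the same element on the other strand. The second window of Six4, from another start site, did not hold these letters. Neither did the windows of Eya4 or of Msx1. The promoters of Pax3, Eya1 and Eya2 were not analysed here. Of 32851 promoter windows of this length, 1337 (4.07%) held the core, so a match is a description and not a measured site. The Myog window also held 2 E-boxes (CANNTG, the element of myogenic bHLH factors), at positions -138 and -12. The Msx1 window held 1 E-box. Each Eya4 window also held 1, at -56 and -3, which is the same site since these windows overlap. Neither Six4 window held any. E-boxes stood in 72.3% of all windows.

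A probe set was called detected when its MAS5 signal, on a linear scale, exceeded a background limit on each of the 3 arrays of its design. That limit was set at the 95th percentile of controls whose target sequence the sample should lack. It was 205.8, 280.4 and 256.5 signal units on U74Av2 replicates 1, 2 and 3. On U74Av2, 58.2% of 12422 probe sets were detected, and 5 of the 9 member probe sets were. On U74Bv2 and U74Cv2, which carry no member, 43.8% and 31.6% of probe sets were detected. Of the named genes of all designs pooled, 62.0% had at least 1 detected probe set, against 3 of the 6 members: Six4, Eya1 and Msx1. On U74Av2 alone, which carries all 9 member probe sets, 66.6% of 8251 genes had at least 1 detected probe set. With only 6 genes, shares this near those of all features set the members apart in neither direction. In bulk RNA, fewer cells that express a gene and less RNA per cell cannot be told apart. Signals depend on probe affinity as well as on RNA, so the levels of different probe sets are not ranked.

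**Figure D1:**
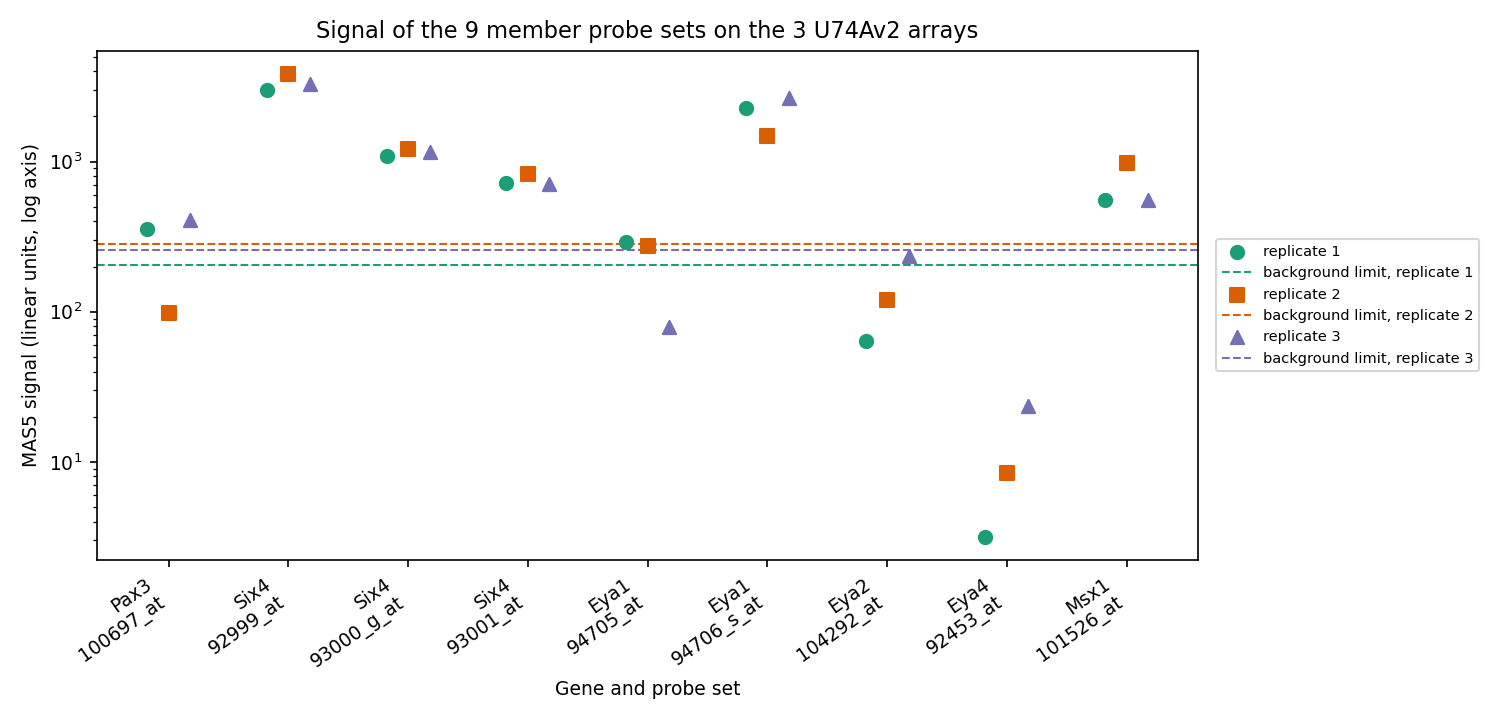
MAS5 signal (log axis) of each of the 9 member probe sets on the 3 U74Av2 arrays, with the background limit of each array as a dashed line. The 3 Six4 probe sets, Eya1 94706_s_at and Msx1 lie above all 3 limits, while Pax3 and Eya1 94705_at straddle them. Each Eya2 and Eya4 signal lies below the limit of its own array.

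Pax3 (100697_at) had signals of 353, 98.3 and 406 on replicates 1, 2 and 3. Replicates 1 and 3 lay above their limits and replicate 2 far below its own, so the arrays did not give a single answer. As multiples of the limit these were 1.72, 0.35 and 1.58, with a mean of 1.2 ± 0.8 (SD, n = 3). The mean log2 ratio to the limit was -0.02 ± 0.34 (SE), which did not differ from the limit (adjusted p = 0.949, limma with Benjamini-Hochberg adjustment over all U74Av2 probe sets). The highest signal was 4.13 times the lowest. The call rested on replicate 2: without it, Pax3 lay above the limit on both remaining arrays, at a log2 ratio of 0.72 (adjusted p = 0.0462, limma). On no array did the Pax3 signal reach the array's median.

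Six4 was measured by 3 probe sets, and all of them lay above the limit on every array. For 92999_at the signals were 2996, 3833 and 3290 on replicates 1, 2 and 3. The mean was 3373 ± 424, or 13.7 ± 0.9 times the limit (SD, n = 3). The log2 ratio was 3.77 ± 0.18 (SE, adjusted p = 5.25e-96 by limma, and 2.8e-06 without an intensity trend).

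The second Six4 probe set, 93000_g_at, carries a suffix for probes shared with another probe set, here 92999_at by the annotated source sequence. Its signals were 1094, 1220 and 1166, a mean of 4.7 ± 0.5 times the limit (SD, n = 3). The third, 93001_at, was designed on a different Six4 sequence and gave 715, 822 and 704, a mean of 3.0 ± 0.4 times the limit (SD, n = 3). Their log2 ratios were 2.24 ± 0.21 and 1.60 ± 0.24 (SE), both past the threshold (adjusted p = 3.96e-25 and 5.94e-11 by limma, 4.08e-05 and 0.000288 without a trend). All 3 Six4 probe sets had their highest signal on replicate 2. The difference between arrays was small, with the highest signal at 1.28, 1.12 and 1.17 times the lowest. All 3 also exceeded the median signal of every U74Av2 array.

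The limma p-values with a trend are far smaller than 3 arrays would give alone. The fit of U74Av2 estimated infinite prior degrees of freedom, so each probe set took the spread of all others at its level. The SE of each log2 ratio comes from this fit and so does not reflect the spread of the probe set's own 3 arrays. For Pax3 the SE was 0.34, while the SD of its log2 signal was 1.127. These are unlike measures, since an SE of a mean is smaller than the SD of single arrays. Six4 93000_g_at, with an SD of only 0.079, had an SE of 0.21. An exact sign-flip test on 1 probe set over 3 arrays cannot go below p = 0.25.

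The 3 Eya genes gave different readings, and Eya1 differed between its own probe sets. Eya1 94706_s_at had signals of 2274, 1484 and 2666 on replicates 1, 2 and 3, all well above the limit. The mean was 8.9 ± 3.2 times the limit (SD, n = 3), with a log2 ratio of 3.08 ± 0.19 (SE, adjusted p = 8.93e-58 by limma, 2.47e-05 without a trend). The _s_ suffix marks probes that can hybridise to more than 1 transcript.

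Eya1 94705_at, which has no such suffix, gave 293, 274 and 79.7. Replicate 1 lay above its limit, replicate 2 just below at 0.98 times, and replicate 3 at 0.31 times. The log2 ratio of -0.40 ± 0.37 (SE) did not pass the test (adjusted p = 0.295, limma). The array on which each Eya1 probe set was lowest also differed, replicate 2 for 94706_s_at and replicate 3 for 94705_at. Detection of Eya1 thus rests on 94706_s_at. With probe sets of such suffixes left out, 2 of the 6 members were detected, Six4 and Msx1, beside 60.2% of all genes.

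Eya2 (104292_at) gave 63.6, 120 and 236 on replicates 1, 2 and 3, below the limit on each array. Replicate 3 came closest, at 0.92 times its limit, and the mean was 0.55 ± 0.32 times (SD, n = 3). Its log2 ratio of -1.01 ± 0.41 (SE) passed the test as below the limit (adjusted p = 0.016, limma). Without replicate 1 it was -0.68 and no longer passed (adjusted p = 0.178), and with the mean of the 3 limits used on each array it was -1.03 (adjusted p = 0.052). With the 90th percentile of the controls as the limit it was -0.76 (adjusted p = 0.113).

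Eya4 (92453_at) had signals of 3.17, 8.38 and 23.7 on replicates 1, 2 and 3. These were 0.015, 0.03 and 0.093 times the limit, with no overlap with it on any array. The log2 ratio was -4.84 ± 0.56 (SE, adjusted p = 2.63e-17 by limma, 2.72e-05 without a trend). A signal this far below the limit has no interpretable level, which does not show that the transcript is absent.

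Msx1 (101526_at) gave 553, 977 and 556 on replicates 1, 2 and 3. Replicates 1 and 3 nearly coincided and replicate 2 stood higher. All 3 lay above the limit, at a mean of 2.8 ± 0.7 times (SD, n = 3) and a log2 ratio of 1.45 ± 0.25 (SE, adjusted p = 1.05e-08 by limma, 0.000769 without a trend). Its signal was near the middle of the array: it lay above the array's median on 2 arrays and just below it on replicate 3. With that median as the limit, Msx1 was therefore not detected, with a log2 ratio of 0.30 (adjusted p = 0.199, limma).

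By limma, 5 member probe sets lay above the limit, the same 5 that were detected, beside 56.0% of U74Av2 probe sets above it. Eya2 and Eya4 lay below it, beside 28.1% of all, and Pax3 and Eya1 94705_at passed in neither direction. The median log2 ratio of the 9 member probe sets was 1.45, against 1.10 over all U74Av2 probe sets.

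**Figure D2:**
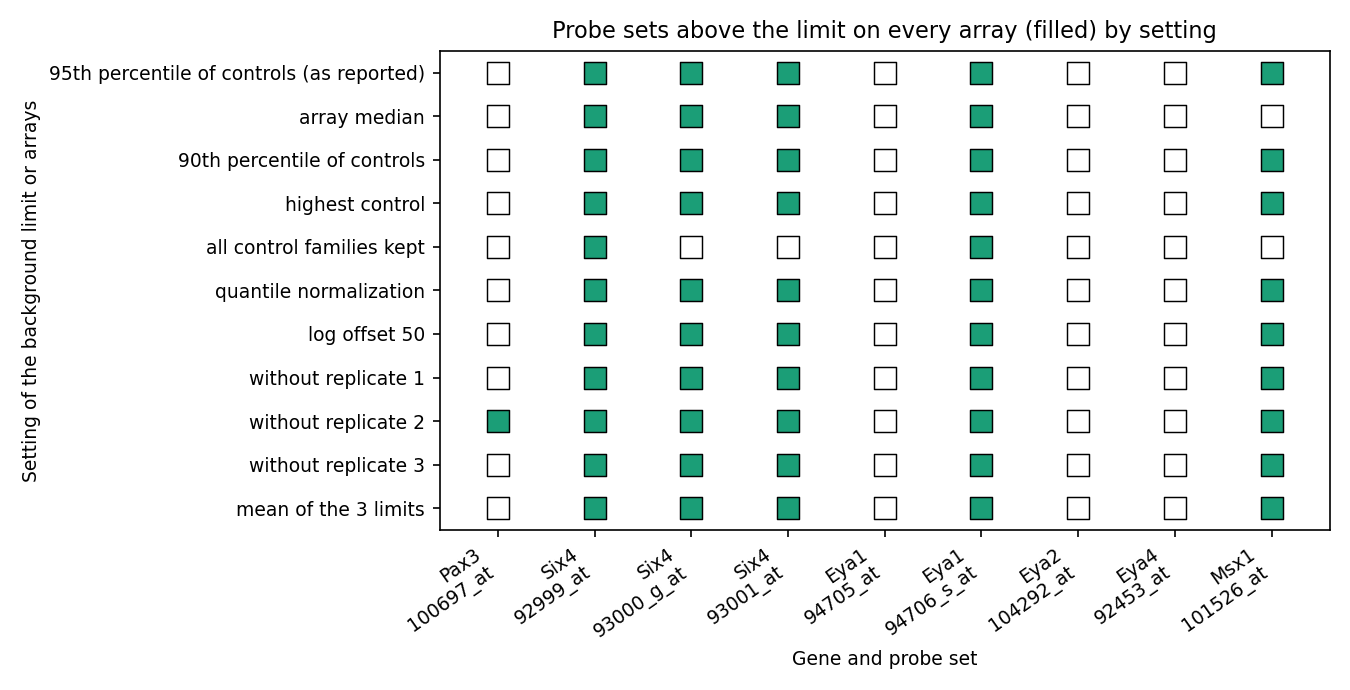
Detection of each member probe set (columns) under each setting of the limit or choice of arrays (rows), where a filled square marks a signal above the limit on every array used. Six4 92999_at and Eya1 94706_s_at are filled under every setting, Eya1 94705_at, Eya2 and Eya4 under none, and Pax3 only without replicate 2.

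Six4 92999_at and Eya1 94706_s_at were detected under all 10 alternative settings of the limit or the arrays. Six4 93000_g_at and 93001_at were detected under 9, Msx1 under 8 and Pax3 under 1. Eya1 94705_at, Eya2 and Eya4 were detected under 0 of the 10. The setting that lost 93000_g_at and 93001_at kept reverse-strand controls with high signal among the controls, and 25.6% of U74Av2 probe sets passed there.

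The replicate spread was read beside that of probe sets of like signal, as a description. For 7 of the 9 member probe sets the SD of log2 signal lay above the median of U74Av2 probe sets of similar mean signal, binned into 10 groups of equal size. The 2 exceptions were Six4 93000_g_at, at 0.079 against 0.168, and Six4 93001_at, at 0.124 against 0.207. Six4 92999_at lay at 0.179 against 0.125.

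Eya1 94706_s_at had an SD of 0.437, against a median of 0.142 at its level, higher than 97.8% of its bin. Without replicate 2 its SD was 0.162. Msx1 had an SD of 0.472 against 0.207, and without replicate 2 it was 0.0068. Replicate 2 was the low array for Eya1 94706_s_at and the high one for Msx1.

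The members that were not detected had SDs between 0.945 and 1.454. For Pax3 it was 1.127 against 0.421 in its bin, for Eya1 94705_at 1.058 against 0.421, for Eya2 0.945 against 0.606 and for Eya4 1.454 against 0.673. Over all U74Av2 probe sets that were not detected the median SD was 0.577, against 0.154 for detected ones. Of the 9 probe sets, 1 was highest on replicate 1, 4 on replicate 2 and 4 on replicate 3. Over all U74Av2 probe sets the shares were 32.7%, 29.1% and 38.2%.

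**Figure D3:**
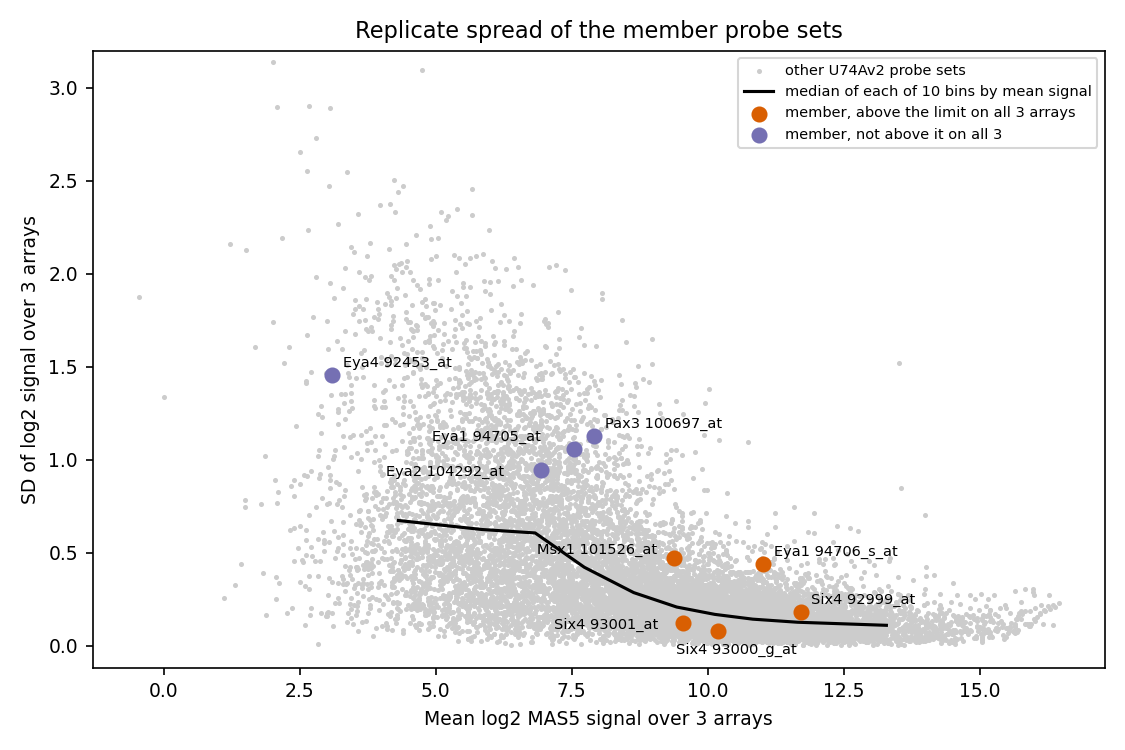
SD of log2 signal over the 3 U74Av2 arrays against mean log2 signal, for the member probe sets (large points) and all other U74Av2 probe sets (grey), with the median of each of 10 bins as a line. Six4 93000_g_at and 93001_at lie under the line, and the other 7 members lie above it.

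Of the remaining genes of the same families and of the network they form with the Dach genes, 18 were measured. Of these 4 were detected, Six2, Eya3, Pax4 and Pax5, beside 62.0% of all genes. Each gene is given by its probe set with the highest ratio to the limit. Eya3, the other Eya gene measured, lay at 3.8 ± 1.9 times the limit of U74Bv2 (SD, n = 3), with 1 of its 2 probe sets detected. That limit was 498.4, 430.0 and 963.4 on replicates 1, 2 and 3, and on replicate 3 it exceeded the array's median signal of 788.8. The SD of every ratio on U74Bv2 includes this change of limit. Six2, a relative of Six4 in kidney and head mesenchyme, lay at 1.5 ± 0.3 times the U74Av2 limit.

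Six3, Six5 and Six6 were not detected, at 0.15, 0.38 and 0.18 times the limit, nor was Dach1, a cofactor of sine oculis proteins, at 0.21 times. Msx2, the closest relative of Msx1, lay at 0.083 ± 0.030 times the limit (SD, n = 3), and Msx3 exceeded it on 2 arrays of 3.

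Pax4, a factor of pancreatic islets, lay at 3.8 ± 1.7 times the limit, and Pax5, a B cell factor, at 3.4 ± 2.1 times (SD, n = 3). Pax5 was close to the limit on replicate 2, at 1.05 times, the array on which Pax3 was also low. Only 1 of the 2 Pax5 probe sets was detected. Pax1, Pax2, Pax6, Pax8 and Pax9 were not detected. Meox1 and Tcf15, somite factors, each exceeded the limit on 2 arrays of 3, and Meox2 on none. Dach2 and Lbx1 were not analysed here.

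**Figure D4:**
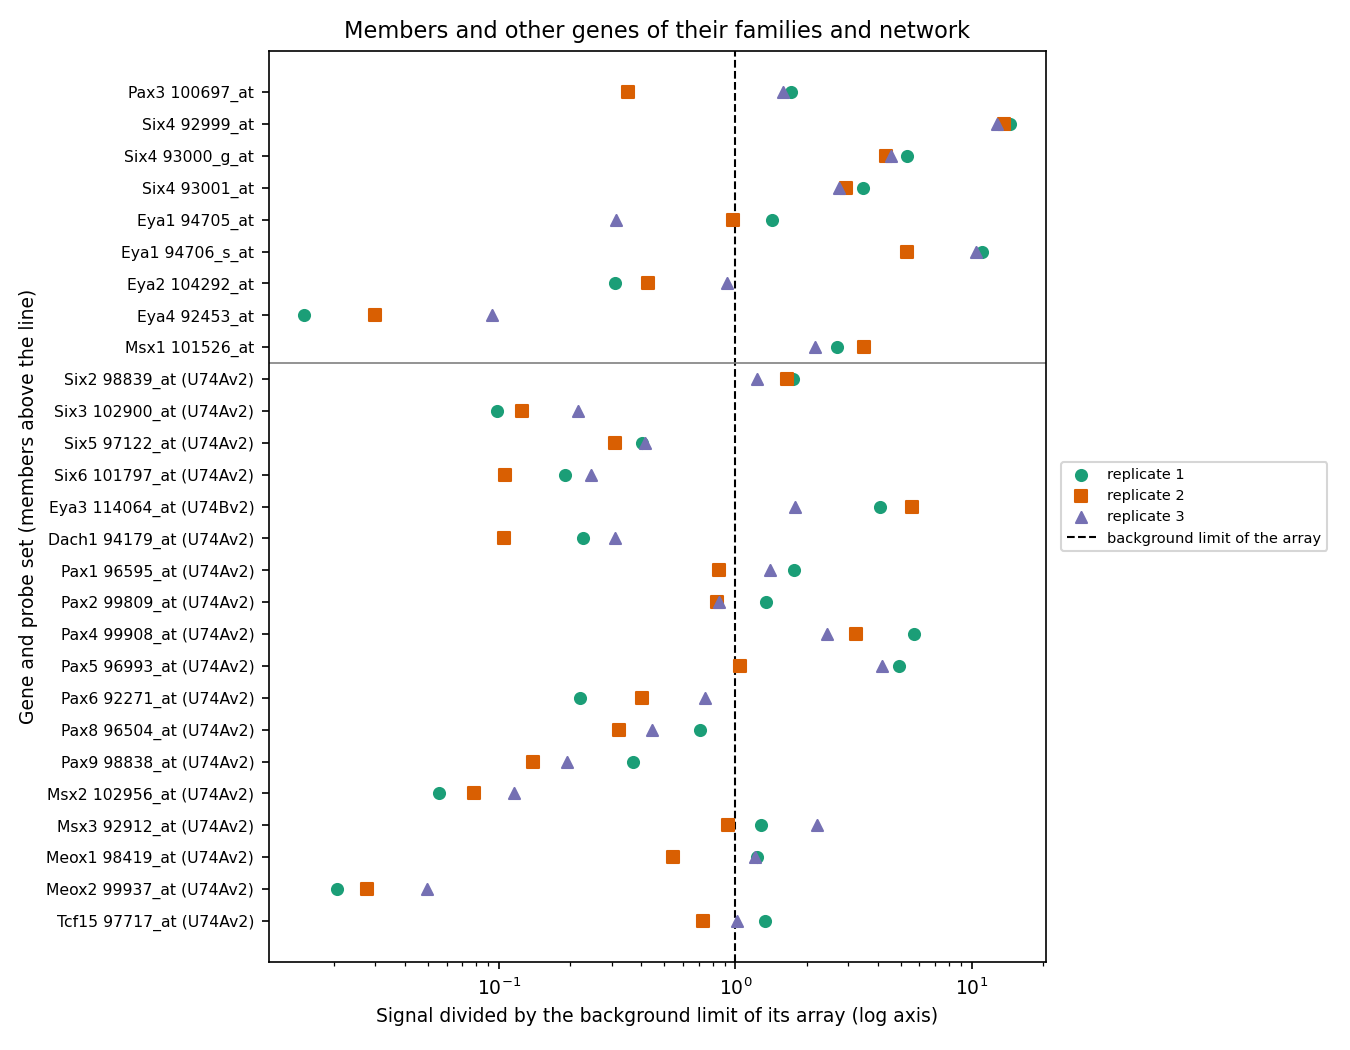
Signal divided by the background limit of its array (log axis) for the 9 member probe sets (above the grey line) and, below it, the 18 measured family and network genes, each by its probe set with the highest mean ratio. The dashed line marks the limit, which Six2, Eya3, Pax4 and Pax5 exceed on all 3 arrays.

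Among the 4 myogenic factors, Myog, Myod1 and Myf5 were detected, 3 of 4. The exception was Myf6, whose protein acts late in muscle differentiation, with 0.28 ± 0.12 times the limit (SD, n = 3) and a signal below it on every array (adjusted p = 4.49e-05, limma). Genes described as targets of sine oculis and Eya factors were detected in 7 of 8 measured cases, beside 62.0% of all genes. Myog lay at 66.7 ± 11.7 times the limit, Myod1 at 31.7 ± 4.1 times and Slc12a2, a sodium, potassium and chloride cotransporter, at 17.3 ± 2.7 times (SD, n = 3). Ezr, Ccnd1 and Gdnf lay at 9.9 ± 1.9, 8.0 ± 1.6 and 4.5 ± 0.6 times the limit. Of their probe sets, 1 of 2, 2 of 3 and 1 of 2 were detected. Aldoa, whose muscle promoter carries a MEF3 element, was detected by 2 of 2 probe sets, and the one with the highest ratio is open to cross-hybridisation. Ccna1 was not detected. Many of these genes answer to other factors as well, so their detection is not a readout of the activity of Six4 or Eya1.

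Genes described as targets of Pax3 were detected in 4 of 9 measured cases, beside the same 62.0%. Met, the receptor that migrating muscle precursors need, was at 7.8 ± 3.0 times its U74Bv2 limit, and Myf5 at 7.0 ± 0.7 times (SD, n = 3). Met was detected by 1 of its 2 probe sets. Myod1 and Foxc2 were the others. Itm2a exceeded the limit on 2 arrays of 3, at 1.1 ± 0.2 times (SD, n = 3). Fgfr4, Dmrt2, Ret and Mitf were not detected either. Dmrt2, at 0.94 times, was measured on U74Cv2, where 31.6% of probe sets were detected. The limit there exceeded the median signal on every array.

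Around Msx1, 6 of 8 measured genes were detected, where 62.0% of all genes were. Bmp4, a signal that induces Msx genes, lay at 11.7 ± 2.2 times the limit by a probe set open to cross-hybridisation, and its receptor Bmpr1a at 12.4 ± 5.2 times on U74Bv2 (SD, n = 3). Id3, which binds E proteins and so blocks myogenic factors, lay at 10.9 ± 0.4 times, Id1 at 4.7 ± 1.0 times and Id2 at 3.1 ± 0.8 times. Pias1, a partner of Msx1, lay at 2.9 ± 0.6 times, while Bmp2 and Dlx5 were not detected. Pias1 was detected by 1 of 3 probe sets, Bmp4 by 2 of 3 and Bmpr1a by 4 of 5. Of the Groucho corepressors, which sine oculis and Msx proteins can recruit, Tle2, Tle3 and Tle6 were detected and Tle1 and Tle4 were not. That is 3 of 5 and so near the 62.0% of all genes. Tle2, Tle4 and Tle6 had their highest ratios on U74Cv2, where 31.6% of probe sets were detected. Tle3 lay at 12.6 ± 2.9 times the limit of U74Av2 (SD, n = 3).

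Of the markers of differentiated muscle 10 of 10 were detected, among them Acta1 at 298 ± 31 times the limit (SD, n = 3). They were chosen with earlier results of these data known, so this is not an independent check of the cells' label. Pax3 and Msx1 also mark neural crest, and sine oculis and Eya genes mark sensory placodes. Of the neural crest and melanocyte markers 4 of 7 measured genes were detected, namely Sox10, Tfap2a, Tfap2b and Erbb3, while Foxd3, Tyr and Dct were not. Of the markers of placode, ear and eye 0 of 6 were detected, and of limb and tooth mesenchyme 4 of 6, namely Prrx1, Twist2, Hand2 and Shox2. Of all genes 62.0% were detected, so the neural crest and mesenchyme shares lay near it and the placode share below it. Neurod1 and Pou4f1 of the placode list had their highest ratios on U74Bv2, where 43.8% of probe sets were detected. Isl1 of that list and Tfap2a had theirs on U74Cv2, where 31.6% were. Tfap2b and Hand2, both on U74Bv2, passed narrowly, at 1.0 and 1.02 times the limit on replicate 3, where that limit was highest. They did not pass by limma (adjusted p = 0.396 and 0.13). The highest ratios of Sox10 and Shox2 came from probe sets with a cross-hybridisation suffix. Erbb3, Tfap2b and Hand2 were each detected by 1 of 2 probe sets, and Tfap2a by 1 of 3. Whether these markers bear on the members' signals was not tested.

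**Figure D5:**
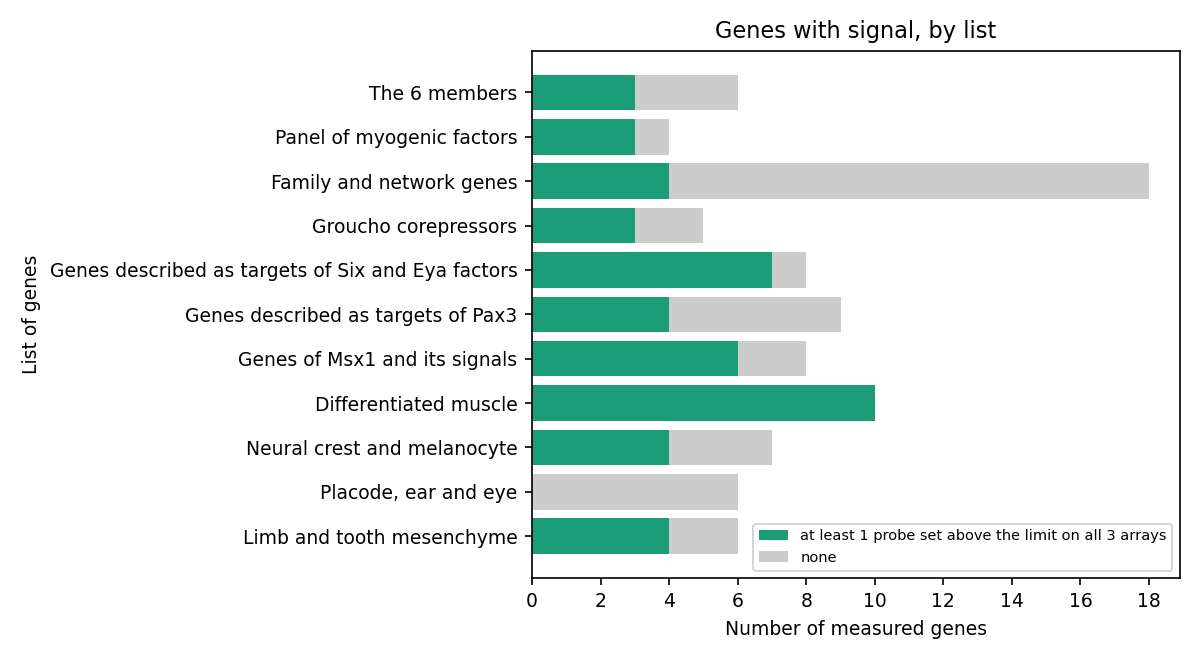
Number of measured genes with at least 1 probe set above the limit on all 3 arrays (green) and with none (grey), for the 6 members and each list. The members split 3 and 3, the family and network genes 4 and 14, and the sine oculis and Eya targets 7 and 1.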

How the data were processed

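The deposited values are MAS5 probe set signals, an intensity on a linear scale, per the submitters' processing notes, which name no version. A 2% trimmed mean of 1500.3 to 1500.9 on each of the 9 arrays showed scaling to a common level, array by array. Signals were therefore not compared between designs. Gene counts pooled the designs, and the highest ratio of each listed gene was picked across them. The 3 U74Av2 arrays matched their chip type, were scanned on 1 day and washed on 1 station. Their log2 signals correlated at 0.958 to 0.959 across probe sets.

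Absent-sequence controls comprised the bacterial Trpn, Thr, Phe, Lys and Dap and the reverse-strand probe sets, without families whose median exceeded the design's, which left 20 on U74Av2. Symbols came from the platform annotation. The log2 ratio of signal to limit was tested against 0 with limma 3.58.1 in R 4.3.3 (intensity trend, two-sided, Benjamini-Hochberg over the design, threshold 0.05). The limit was treated as known. Tables were handled with Python 3.11.15, pandas 2.3.3 and numpy 2.4.6.

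Members and lists were chosen with earlier results of these data known. All member probe sets, 4 myogenic factors and the listed genes were the ones to be named. No gene was sought by likeness of pattern, since the arrays are replicates of 1 condition. The number of arrays limits the precision.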

Additional observations from a re-analysis of the deposited data

How the results depend on the processing

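With all control families kept, 2 member probe sets were detected and 2 lay above the limit by limma (against 5 each), 6 lay below it, and the log2 ratios of Six4 93000_g_at, Six4 93001_at and Msx1 turned to -0.34, -0.98 and -1.13. The number below the limit, 2 as reported, was 4 with the array median, 1 with the 90th percentile, 1 with the mean of the 3 limits (chosen after seeing the data, as was limma without a trend) and 0 with dim probe sets left out, which removed all 4 undetected probe sets from the fit. It ranged from 1 to 2 when 1 replicate was left out. The near-zero log2 ratio of Pax3 turned to 0.23 with the 90th percentile, 0.023 with quantile normalization and 0.024 with an offset of 50, and ranged from -0.43 to 0.72 when 1 replicate was left out. That of Eya1 94705_at ranged from -0.86 to 0.24. The causes were not tested. Member genes detected stayed within 2 to 4 under the 13 alternatives. With 3 arrays, ratios near the limit cannot be resolved. No paired analysis was possible because there was 1 condition and each design had 1 array per replicate number.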
